A study of Mus musculus with 6 samples.

Results

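The Id genes and their companions in bone morphogenetic protein (BMP) signalling were followed on 6 arrays of the C57B6 mouse line mProx24, which comes from kidney proximal tubule. The members were 9 genes (Id1, Id2, Id3, Id4, Smad6, Smad7, Bmp4, Atoh8 and Bambi) of 34574 gene names on the arrays, taken by the gene name of the probe. They were chosen by their levels on these same 6 arrays, so those levels and differences are given as a description. They were read by 10 probes, of which Bmp4 had 2 and every other member 1. By the mark of the scanner software, 7 of the 9 members were well above background on at least 1 array and 5 on all 6.

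Each condition had 1 array. The control was labelled 20%, NG and PBS, and hypoxia 1%, NG and PBS, the percentage being that of oxygen. Triple stimuli combined 1% oxygen, high glucose and palmitate, a saturated fatty acid. Cells under hypoxia spent 12 hours at 1% oxygen before palmitate, which was bound to albumin (0.15%) and given at 150 µM for 9 hours. The sixth array added rapamycin, an inhibitor of the growth kinase complex mTORC1, at 0.4 µg/ml from 12 hours ahead of the palmitate. Single stimuli at 20% oxygen made up the remaining arrays, high glucose on one and high FFAs (palmitate) on the other. Their labels conflict between the scanner files and the deposited value table, so they are called array A (high glucose by its scanner file, high FFAs by the value table) and array B (the reverse). Whichever label holds, the stimulus of array A was also given on both triple-stimuli arrays and was absent from control, array B and hypoxia. No source used here gives the glucose concentrations.

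With 1 array per condition no value has a replicate error and no test could be run. A gene was called higher or lower at a log2 difference of 1 or more, a 2-fold difference. Between 10 spots of the same probe on 1 array the median SD was 0.0606 to 0.0728 on the log2 scale, which covers the spread within an array alone. The share of spots well above background ran from 40.3% to 43.8%. The arrays at 1% oxygen formed the second row of the slide, and oxygen and slide row therefore cannot be told apart. Of 16 genes listed as proximal tubule markers, 6 were well above background on all 6 arrays, among them Lrp2, Cubn, Aqp1, Pax8 and Cdh16. Another 8 were so on no array, among them the sodium transporters Slc34a1 and Slc5a2 and the factor Hnf4a. The list was not checked for genes that other nephron segments also express. Of 5 endothelial markers 4 were well above background on no array, as were 2 of 4 leukocyte markers (Ptprc and Adgre1) and 3 of 4 markers of other nephron segments. Markers of these lists that were measured on all 6 arrays were Kdr (endothelium), Cd68 and Cd3e (leukocytes) and the water channel gene Aqp2 (other nephron segments). Of 4 epithelial markers, Krt8 and Krt18 were measured on all 6 arrays, Epcam was well above background on none, and Cdh1 gave no level. Of 4 fibroblast markers, Pdgfrb and Dcn were well above background on no array, Col1a1 on 1, and Pdgfra gave no level.

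BMPs are secreted ligands that bind paired serine-threonine kinase receptors, which phosphorylate SMAD1, SMAD5 and SMAD9. These enter the nucleus with SMAD4 and switch on the Id genes, the best known immediate targets of the pathway. Id proteins carry a helix-loop-helix without a DNA-binding stretch, so they bind E proteins and keep them from DNA. Smad6 and Smad7 encode inhibitory SMADs that are induced by the pathway and feed back on it, Bambi encodes a decoy receptor, and Atoh8 encodes a basic helix-loop-helix factor. In the kidney, BMP7 is made by tubular epithelium and is known for opposing the profibrotic ligand TGF-beta.

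The 250 bases before the RefSeq start of Id2 and Id3 are shown because these genes had the widest separation between arrays among members measured on all 6. RefSeq promoters (build GRCm38.p6) were matched for 6 of the 9 members. Capitals mark matches, on either strand, to GGCGCC (a GC-rich SMAD element), CAGAC (a SMAD-binding element), TGACG (a CRE half-site) and the E boxes CACGTG and CAGCTG.
Id2 (chr12:25096093-25096342, minus strand): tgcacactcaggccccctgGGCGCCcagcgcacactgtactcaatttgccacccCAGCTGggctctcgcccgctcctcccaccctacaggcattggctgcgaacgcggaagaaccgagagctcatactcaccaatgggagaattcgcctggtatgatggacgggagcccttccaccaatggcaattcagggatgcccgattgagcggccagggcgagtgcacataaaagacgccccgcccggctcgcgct
Id3 (chr4:136143572-136143821, plus strand): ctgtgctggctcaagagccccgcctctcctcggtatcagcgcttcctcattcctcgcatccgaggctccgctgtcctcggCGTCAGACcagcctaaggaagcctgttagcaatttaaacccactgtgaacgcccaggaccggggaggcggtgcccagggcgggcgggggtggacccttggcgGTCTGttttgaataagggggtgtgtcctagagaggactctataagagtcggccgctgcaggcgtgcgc

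Id2 held GGCGCC with its first base 231 bases before the start (-231) and CAGCTG at -196. Id3 held CAGAC at -167 and, on the other strand, at -68, and TGACG on the other strand at -170, where its last bases overlap the first CAGAC. Over the same window of 32851 RefSeq promoters, GGCGCC was found in 9.59%, CAGAC in 42.2%, TGACG in 17.8%, CACGTG in 6.02% and CAGCTG in 13.0%. Of the other members matched, Atoh8 held CACGTG at -230 and CAGCTG at -59, Bmp4 held CACGTG at -188, Id4 held GGCGCC at -148 and TGACG at -229, and Smad6 held none of the 5. These matches are letters in a window and were not tested for binding. Id1 had no entry among the promoters used. The promoters of Smad7 and Bambi were not examined, so nothing is said of their elements.

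Id3 showed the widest spread of the Id genes. Its probe (mm9, chromosome 4, 135700075 to 135700249) was read as a log2 level relative to the 75th percentile of its array. The level was 1.77 on array A, 2.26 in triple stimuli and 2.55 with rapamycin, against 3.86 in control, 3.97 in hypoxia and 4.29 on array B. The first 3 arrays lay below the other 3 with a gap of 1.32. The level on array A was 4.27-fold below control (log2 difference -2.10), which ranked 8 from the lowest of 17721 genes tested.

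Some cell type markers divided the arrays in the same way. Signals of the genes on the proximal tubule list were summed in units of the 75th percentile. The sum was 102.5 on array A, 110.7 in triple stimuli and 98.6 with rapamycin. On the other arrays it was 145.7 in control, 155.5 on array B and 181.6 in hypoxia. Cdh16, a kidney cadherin gene, made up 77.3% to 80.0% of that sum, and without it the sum was 19.7 to 23.8 on the first 3 arrays and 31.4 to 37.6 on the others. Of the 6 genes measured on the proximal tubule list, Lrp2, Aqp1 and Cdh16 were below on all 3 arrays, and Cubn, Pax8 and Ggt1 overlapped. Over all 14991 genes well above background on all 6 arrays, 17.7% lay below in this way and 13.1% above. Against control, the median of the proximal tubule list was -0.22 on array A, 0.03 in triple stimuli and -0.35 with rapamycin. It was 0.12 on array B and 0.33 in hypoxia. In triple stimuli against hypoxia it was -0.50. Aqp2 was also below, at -1.72 on array A and -1.79 on both triple-stimuli arrays, against -1.02 in control, -1.02 on array B and -1.34 in hypoxia. Cd68, a lysosomal protein gene of macrophages, lay the other way, at 1.05 on array A, 0.52 in triple stimuli and -0.27 with rapamycin, against -0.87 in control, -0.82 on array B and -0.57 in hypoxia. Its spot lies in row 16. In rows 1 to 64, 10.9% of genes tested were higher in triple stimuli against control, compared with 3.02% in rows 257 to 320. On array A against control these shares were 1.88% and 1.13%. The part of position in the Cd68 values was not tested. Kdr, Cd3e and the epithelial markers Krt8 and Krt18 overlapped. The part of these markers in the Id differences was not tested. In RNA from whole cultures, fewer cells with a transcript and less of it per cell cannot be told apart.

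Id2 ranked the arrays much as Id3 did, over a narrower range. Its probe (chromosome 12, 25778904 to 25778963) stood at 3.58 on array A, 3.87 with rapamycin and 3.91 in triple stimuli, against 4.78 in control, 4.83 in hypoxia and 4.97 on array B. The same 3 arrays were low, the groups did not overlap, and the gap was 0.87. Array A was 2.31-fold below control (-1.21), whereas triple stimuli, at -0.87, and triple stimuli with rapamycin, at -0.91, missed the 2-fold mark.

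Id1 departed from Id2 and Id3 in hypoxia. Its levels (chromosome 2, 152563083 to 152563142) were 2.66 on array A, 2.90 in triple stimuli, 3.002 with rapamycin and 3.05 in hypoxia, against 3.69 in control and 4.24 on array B. Hypoxia alone stood beside the triple-stimuli arrays, so that the gap between the 3 lower and 3 higher arrays was 0.05, less than the SD between spots of a probe. Array A was 2.04-fold below control (-1.03), just inside the threshold, and at -0.98 with normexp background correction, just outside it. Array B was the highest array for Id1, at 0.55 above control, as it was for Id2 and Id3, at 0.19 and 0.43 above it. Id4, the remaining family member, was not well above background on any array (chromosome 13, 48358668 to 48358727).

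**Figure D1:**
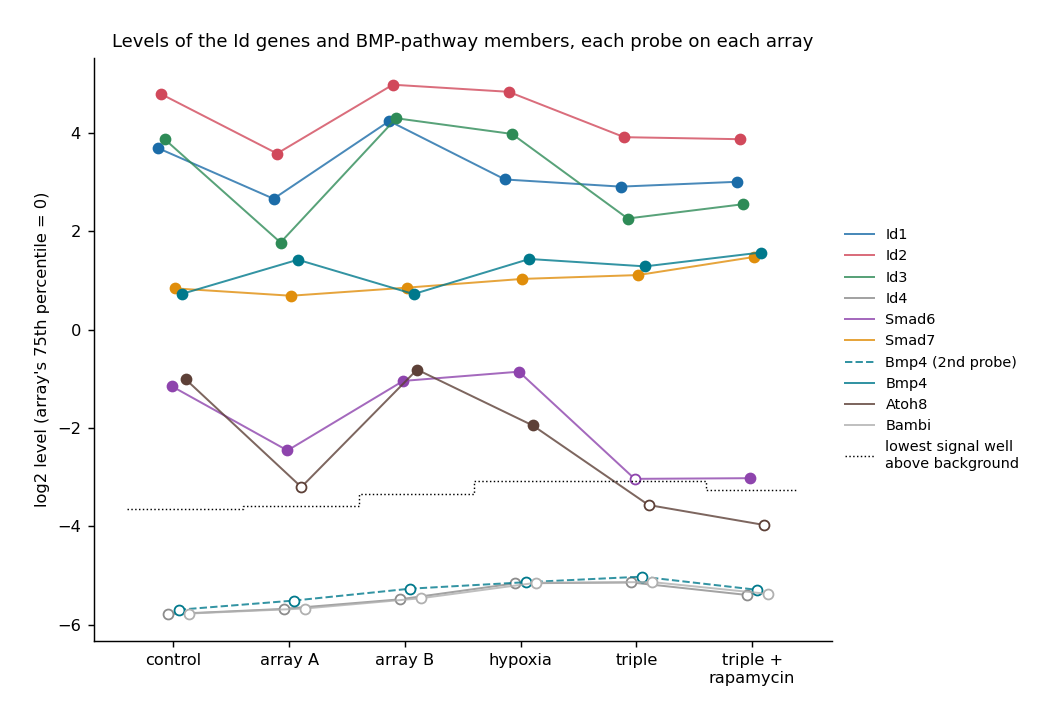
Log2 level of each member probe on each of the 6 arrays, relative to the array's 75th percentile; filled points are well above background, open points are not, the dotted line is the lowest signal well above background on that array, and lines join the values of 1 probe. Id3 runs between 1.77 and 4.29, and Id2, Id3, Smad6 and Atoh8 are lowest on array A and both triple-stimuli arrays, while Id4, Bambi and 1 Bmp4 probe lie below the dotted line throughout.

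The inhibitory SMAD genes differed from each other in pattern. Smad6 (chromosome 9, 63800980 to 63801039) was at -2.46 on array A, -3.02 with rapamycin and -3.03 in triple stimuli, where it was not well above background. It was at -1.15 in control, -1.04 on array B and -0.86 in hypoxia. The low arrays were those of Id2 and Id3, with a gap of 1.31. Array A was 2.47-fold below control (-1.31), and triple stimuli at least 3.69-fold below it (-1.88 or lower, the dim side being taken at the higher of its own signal and the lowest signal well above background). With normexp background correction these became -0.74 and -0.78, and neither was 2-fold. The Smad6 spot lies in the first 64 of the rows of spots, where 7.64% of genes tested were 2-fold lower in triple stimuli against hypoxia, compared with 1.27% in rows 257 to 320, and the part of position in the Smad6 value was not tested.

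Smad7 stayed within a narrow range (chromosome 18, 75555371 to 75555430). Its level was 0.69 on array A, 0.84 in control and 0.85 on array B at 20% oxygen. At 1% oxygen it was 1.03 in hypoxia, 1.11 in triple stimuli and 1.47 with rapamycin. Array A was the lowest and the rapamycin array the highest, the latter 1.56-fold above control, and the low and high arrays of Id3 overlapped for this gene. No comparison of Smad7 reached 2-fold.

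Atoh8 was well above background on 3 of the 6 arrays. Its probe (chromosome 6, 72156816 to 72156875) was at -1.01 in control, -0.81 on array B and -1.95 in hypoxia. It was not well above background on array A (-3.20), in triple stimuli (-3.56) or with rapamycin (-3.97). Against control it was at least 4.56-fold lower on array A (-2.19 or lower), which ranked 6 from the lowest. It was at least 4.21-fold lower in triple stimuli and at least 4.78-fold lower with rapamycin. Hypoxia alone was 1.92-fold below control (-0.94), just outside the threshold, and at -1.07 under quantile normalization. With normexp correction the values against control were -1.12 on array A, -1.07 with rapamycin and -0.87 in triple stimuli, the last no longer 2-fold. The folds above are therefore bounds under the main processing alone.

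Bmp4, the one ligand among the members, did not follow the Id genes. Its brighter probe (chromosome 14, 47003391 to 47003450) was at 0.72 on array B and 0.73 in control, against 1.28 in triple stimuli, 1.42 on array A, 1.43 in hypoxia and 1.57 with rapamycin. Control and array B were the low arrays, and the other 4 lay above them by 0.56 to 0.84 relative to control, each under 2-fold. The other probe (47003198 to 47003257) was not well above background on any array and gives no second reading. Bambi was likewise not well above background on any array (chromosome 18, 3516008 to 3516067). Exon and untranslated-region annotation on mm9 was not used here for any of these probes.

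By comparison, array A had the most members called. Of the 7 members tested against control on array A, 5 were at least 2-fold lower (Id1, Id2, Id3, Smad6 and Atoh8) and 0 higher, where 0.909% of all 17721 genes tested were lower and 1.56% higher. The members were chosen with these values known, so the count describes them and supports nothing. The median of the 7 was -1.21, against -0.01 over all genes tested.

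On array B 0 of 7 members were called, where 0.281% of genes were lower and 0.31% higher, and the member median was 0.19. In hypoxia alone 0 of 7 were called, where 0.469% of genes were lower and 4.42% higher, and the member median was 0.11. In triple stimuli against control 3 of 7 were lower (Id3, Smad6 and Atoh8), where 1.72% of genes were lower and 5.08% higher, with a member median of -0.87. These comparisons share the control array.

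**Figure D2:**
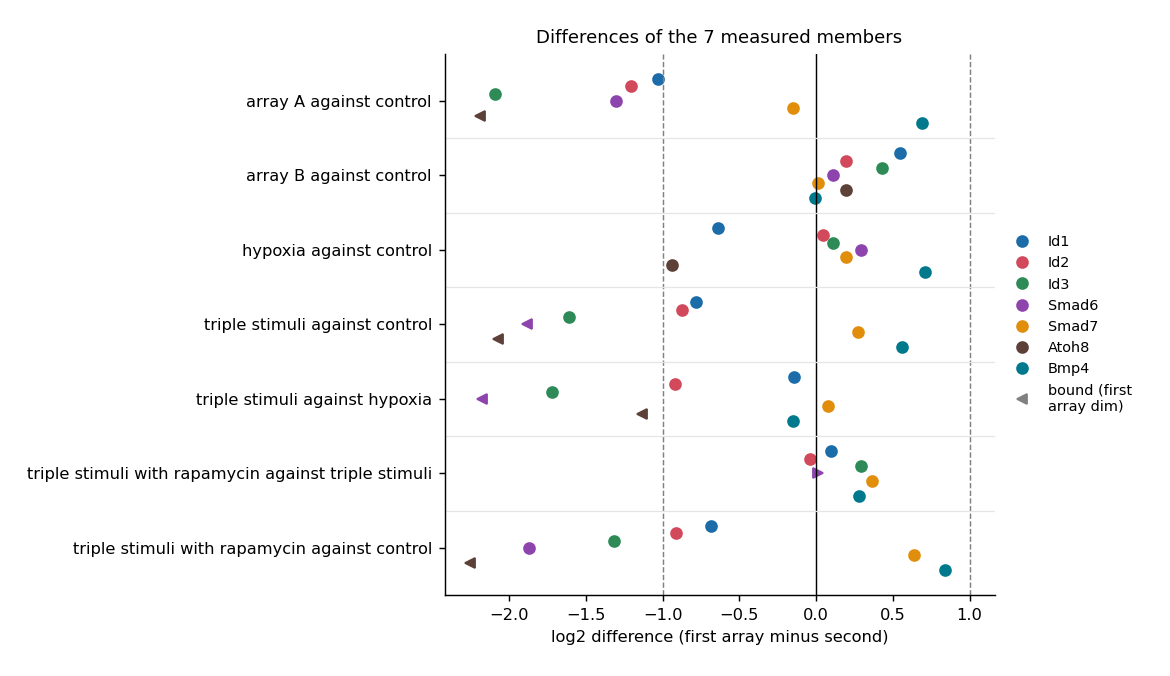
Log2 difference, first array minus second, of the 7 measured members in 7 comparisons; circles were measured on both arrays, triangles are bounds because 1 array was not well above background (the triangle near 0 for Smad6 is a bound with the second array dim), and dashed lines mark 2-fold. Id3, Smad6 and Atoh8 lie left of -1 wherever array A or a triple-stimuli array is set against control or hypoxia, and Smad7 and Bmp4 never pass either line.

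Glucose and palmitate added at 1% oxygen can be read from a pair of arrays that shares none with array A against control. In triple stimuli against hypoxia 3 of 7 members were at least 2-fold lower, where 3.03% of genes were lower and 3.5% higher. Id3 was at -1.72, Smad6 at -2.18 or lower (-1.06 with normexp correction) and Atoh8 at -1.13 or lower (-0.38 with it). Id2 was just outside, at -0.92, and Smad7 and Bmp4 were at 0.08 and -0.15. Id1, which was at -1.03 on array A against control, was at -0.15 here, and its level in hypoxia alone was 0.64 below control. Array A carried 1 stimulus and triple stimuli added both, so the sizes are set side by side without a test of their difference.

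Of 16180 genes tested in both of these comparisons, 50 were lower in both (0.309%), which was 42.4% of the 118 lower on array A and 17.6% of the 284 lower in triple stimuli against hypoxia. Id3, Smad6 and Atoh8 were among the 50. Genes higher in both numbered 125, or 0.773%, with 0 members among them.

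**Figure D3:**
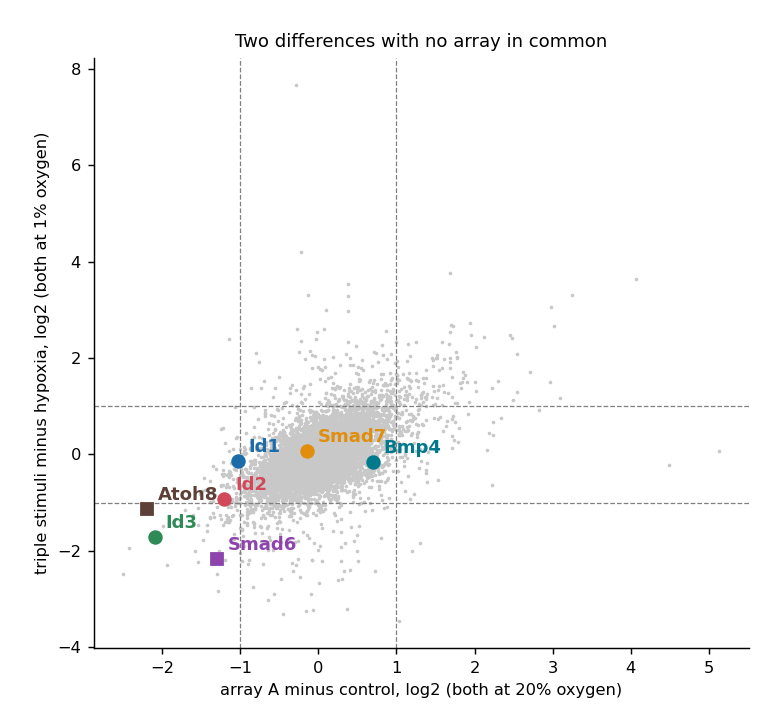
Each grey point is a gene tested in both comparisons, with the log2 difference of array A minus control on the horizontal axis and triple stimuli minus hypoxia on the vertical axis; dashed lines mark 2-fold, and squares (Smad6 and Atoh8) are bounds on at least 1 axis. Id3, Smad6 and Atoh8 fall in the lower left corner, Id1 and Id2 between -1.03 and -1.21 on the horizontal axis but above -1 on the vertical one, and Smad7 and Bmp4 inside the dashed lines on both axes.

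The 3 arrays that shared the stimulus of array A were also set against the other 3 for every gene well above background on all 6. All 3 lay below all of the others in 2651 of 14991 genes, or 17.7%, and above them in 13.1%. Id1, Id2 and Id3 were below, and Smad7 and Bmp4 overlapped. Gaps were ranked in the downward direction only, and separation upward was not ranked. By the size of the downward gap Id3 ranked 4, Id2 ranked 17 and Id1 ranked 1952 of the 14991 genes. This division follows the labels of the arrays, but the members were chosen with the values known.

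With rapamycin added to triple stimuli no member differed 2-fold. Of 6 members tested 0 were called, where 2.15% of genes were lower and 1.95% higher. Id3 was 0.29 above triple stimuli, Id1 0.10 above and Id2 0.04 below. Smad7 was 0.37 above and Bmp4 0.28 above. Against control, the array with rapamycin still had 3 of 7 members at least 2-fold lower, where 1.78% of genes were lower and 4.54% higher. Id3 was at -1.32, Smad6 at -1.87 (-0.83 with normexp correction) and Atoh8 at -2.26 or lower (-1.07 with it). Centred by bands of spot rows, 5 passed 2-fold, with Id2 at -1.06 and Bmp4 at 1.01 added. The Id3 difference of -1.32 was smaller than the -1.61 of triple stimuli alone, and whether 1 array can tell these apart was not tested.

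Upstream of the Id genes come the ligands and receptors. Of 13 BMP ligands besides Bmp4, 3 were measured (Bmp6, Bmp7 and Bmp8a), and 0 were called in any of the 7 comparisons. Bmp7 had a log2 level between 2.22 and 2.73, and Bmp6 between 1.44 and 2.11, both lacking a 2-fold difference. Of 12 receptors and co-receptors 9 or 10 were tested in a comparison and 1 was called in any. Over all 19046 genes tested, 14.8% were called in at least 1 of the 7 comparisons, so few calls among so few genes say little about these lists. The receptor called was Acvr2b, a type II receptor gene, at 1.07 above control with rapamycin (0.96 in control, 2.04 with rapamycin). Bmpr1a, a type I receptor gene, was highest in control, at 1.92, and between 1.23 and 1.4995 on the other 5 arrays.

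Of 16 secreted antagonists 7 or 8 were tested in a comparison. Nbl1, which encodes a BMP-binding antagonist, was higher in triple stimuli by 1.20 against control and 1.11 against hypoxia, with levels of -1.43 in control and -1.34 in hypoxia against -0.23. Bmper, another BMP-binding protein gene, was at least 1.19 higher with rapamycin than in triple stimuli, from a spot in row 18. In the first 64 rows 7.28% of genes tested were higher in this comparison, against 0.216% in rows 257 to 320. No antagonist was 2-fold lower in any comparison.

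Among 16 SMADs and their regulators, Smad1, Smad4 and Smad5 kept within 2-fold in every comparison, and the levels of Smad5 were 4.05 to 4.20. Called were Skil, a transcriptional corepressor of SMADs, at 1.03 above control in triple stimuli, and Ctdspl, a small phosphatase gene, at -1.004. Smad9, named after its values were seen, divided the arrays as Id3 did, being well above background in control (-2.67), on array B (-2.19) and in hypoxia (-2.19) but not on array A (-5.63), in triple stimuli (-5.17) or with rapamycin (-5.06). Because it was dim to begin with, its bounds of -0.92 on array A against control and -0.90 in triple stimuli against hypoxia stopped short of 2-fold.

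Other target genes of BMP were mostly not measured, as 8 of 14 were well above background on no array. Hes1, a helix-loop-helix repressor gene, was -1.12 in control and -2.43 on array A, a difference of -1.32. Hey1, a relative of Hes1, was lower on array A as well (-1.08), but in hypoxia it was 1.56 above control, and triple stimuli were at -1.64 against hypoxia. Both are also targets of Notch signalling. The list median on array A was -0.84 over 5 genes, against -0.01 over all genes tested, and 2 of the 5 were lower, where 0.909% of all genes were.

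The targets of the TGF-beta branch differed in both directions. Thbs1, a matrix protein that activates TGF-beta, was at -1.99 on array A, -1.78 in triple stimuli and -1.76 with rapamycin against control. Tgfbi, a secreted matrix protein gene, was at -2.43, -1.22 and -1.38. Snai2, a transcriptional repressor gene, was 1.48 higher in triple stimuli than in hypoxia. In all, 2 of 8 tested were lower and 0 higher on array A, with a median of -0.35, where 0.909% of all genes were lower and 1.56% higher. In triple stimuli, 2 of 8 were lower and 1 higher against control (1.72% and 5.08% of all genes), and 2 of 7 lower and 2 higher against hypoxia (3.03% and 3.5%). With rapamycin 2 of 8 were lower and 0 higher against control (1.78% and 4.54%), and 1 of 8 was higher in hypoxia (4.42%).

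The E proteins, the partners that Id proteins hold back, stayed near their control level. Tcf3 lay between 2.82 and 3.06, Tcf4 between 1.42 and 1.698 and Tcf12 between 0.49 and 0.90. Of the cell cycle inhibitors that E proteins can drive, Cdkn1a was not well above background in control. Against control it was at least 1.02 higher in hypoxia, at least 1.27 in triple stimuli and at least 1.45 with rapamycin. The shares of all genes higher in these comparisons were 4.42%, 5.08% and 4.54%. Cdkn2a, between 6.43 and 6.79, and Cdkn2b, between 2.69 and 3.39, stayed under 2-fold in every comparison. On array A 0 of the 6 genes of this list were called, where 0.909% of all genes were lower and 1.56% higher. The list median there was -0.09. So few genes at such shares say little about the list. Over the 7 lists, 57 of 86 genes were tested in at least 1 comparison and 13 were called in at least 1, or 22.8% of those tested, against 14.8% of all genes tested. With normexp correction 5 of 58 were called, or 8.62%, against 7.83% of all genes.

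**Figure D4:**
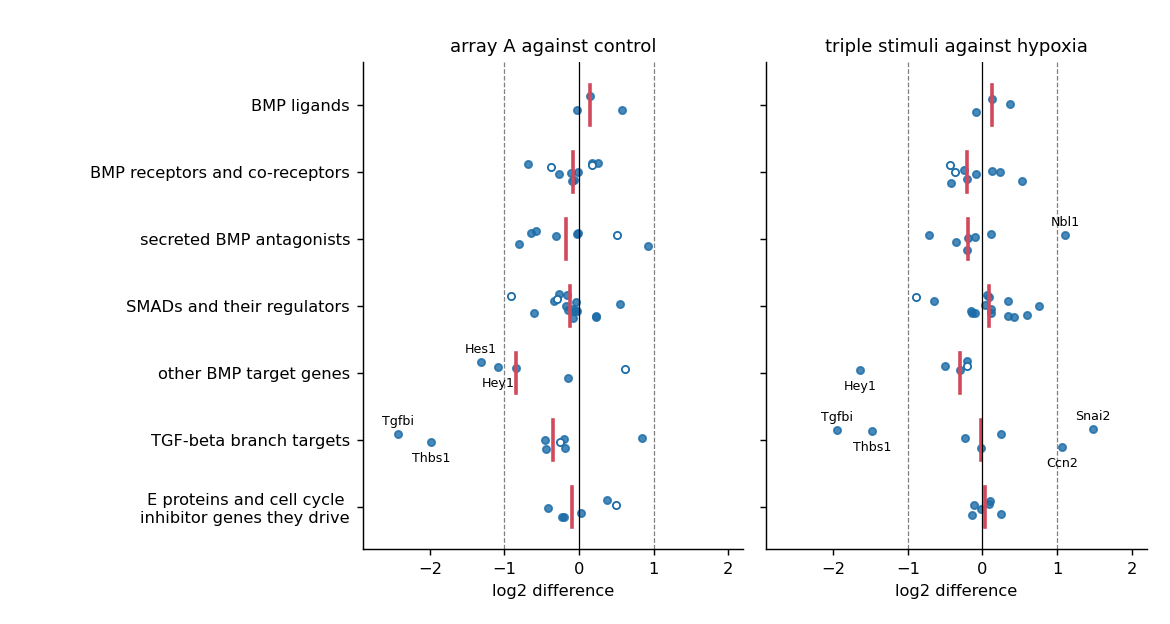
Log2 differences of the tested genes of 7 pathway lists on array A against control (left) and in triple stimuli against hypoxia (right); filled points were measured on both arrays, open points are bounds, red bars are list medians, dashed lines mark 2-fold, and genes past it are named. Ligands, receptors, SMADs and E proteins lie between the dashed lines in both panels, while Tgfbi, Thbs1, Hes1 and Hey1 lie left of -1 on array A.

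The genes closest in pattern to each Id gene were sought by the root mean square difference of log2 levels, after removing each gene's mean over the 6 arrays, among 10632 other named genes well above background on all 6. Id3 was closest to Trabd2b and Thbs1 (both 0.23), followed by Tgfbi (0.31), Prrx2 (0.36) and Tafa5 (0.37), and Id2 ranked 12 (0.42). In the files Trabd2b is listed as Gm12824 and Tafa5 as Fam19a5. Trabd2b encodes a membrane protease that inactivates Wnt ligands. The level of Thbs1 over the 6 arrays ran over 1.99, against 2.52 for Id3.

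Id2 was closest to Crispld2 (0.09), Scube3 (0.10), Spns3 (0.13), Wnt5b (0.14) and the growth factor receptor gene Fgfr4 (0.14). Its nearest genes were low on array A and on both triple-stimuli arrays, and high on the other 3. Id1 was closest to Rhd (0.12), the cholesterol exporter gene Abcg1 (0.15), the glutathione peroxidase gene Gpx3 (0.18), Lfng (0.20) and Rnf145 (0.21). Abcg1, Gpx3, Rhd and Lfng were, like Id1, below their mean in hypoxia as well. From Id1, Id2 ranked 193 and Id3 7492, while from Id3, at the same distance of 0.60, Id1 ranked 98. The 3 Id genes were not each other's nearest neighbours. The distance also depends on how widely a gene ranges, which was 1.58 for Id1 and 2.52 for Id3. These distances rest on 6 arrays and are descriptions.

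**Figure D5:**
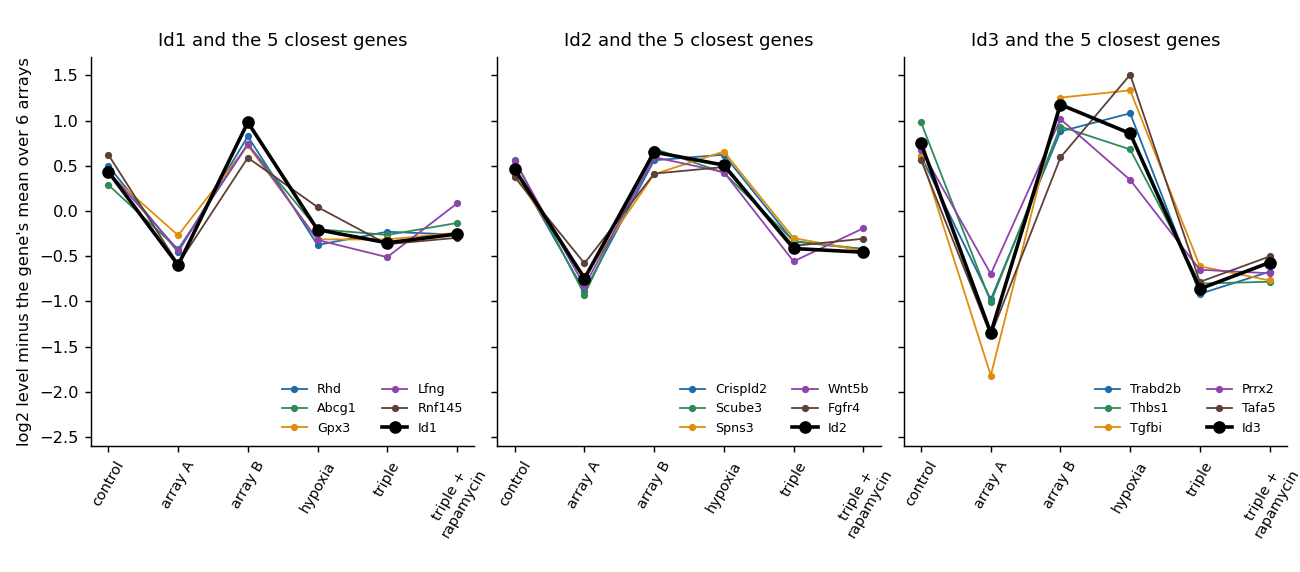
Log2 level minus the gene's own mean over the 6 arrays for Id1, Id2 and Id3 (black) and the 5 genes with the smallest root mean square difference from each (coloured); lines join the values of 1 gene. The Id2 and Id3 panels drop on array A and the triple-stimuli arrays, and the Id1 panel is also below 0 in hypoxia, except for Rnf145.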

How the data were processed

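RNA was measured on 6 single-colour (Cy3) Agilent arrays, 1 per condition. The authors used Agilent Feature Extraction 10.7.3.1 on the scans, per the file headers. Each deposited scanner file gives linear intensity values by spot, background-subtracted and detrended within the array but not scaled between arrays, with 0 or 1 marks for spots above background and for outliers. The deposited value table holds a ratio, the signal over the 75th percentile of its array, as read from its values. Its columns matched the scanner files under their own labels for 4 arrays and crosswise for arrays A and B. Its medians ran from 0.0505 to 0.0562.

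From the log2 processed signal of each spot, the log2 75th percentile over that array's 59305 non-control spots was subtracted, and repeat spots were averaged (Python 3.11.15, pandas 2.3.3). Of 55681 probes, 323 with an outlier mark on any array were left out, none of them a member's. A gene was represented by its brightest probe, and was tested in a comparison if either array had it well above background. The steps were tested on simulated data in which every array carried the control's above-background marks. Bounds for a gene dim on a single array of a pair were therefore not covered by it. All 8 alternatives, with normexp (offset 50) in limma 3.58.1, are described in the closing section. Named were all members, in each list up to 4 genes at least 2-fold different and measured on both arrays, and the 5 nearest genes to Id1, Id2 and Id3. One gene that this rule names is not reported here. Genes named outside this rule are the bounds, marker genes and genes given as examples of a level under 2-fold. The members and lists were chosen with earlier results of these data known. Promoters and current symbols are from RefSeq, GRCm38.p6. Probe positions are on mm9, per the file headers.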

Additional observations from a re-analysis of the deposited data

How the results depend on the processing

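With 8 alternatives, 368 of 377 recomputed member differences stayed on the same side of 2-fold, 6 dropped below it, 3 passed it and 0 changed direction when called. All 6 that dropped did so with normexp background correction, and the cause was not tested. It left 3 members called on array A (Id1 at -0.98 and Smad6 at -0.74 were lost), 1 in triple stimuli against control (Smad6 at -0.78, Atoh8 at -0.87), and 5 pathway genes in place of 13. With only genes measured on both arrays, Smad6 and Atoh8 left triple stimuli against control and against hypoxia, and 1 member was called in each. Without Atoh8, 4 of 6 members were called on array A against control, and 2 of 6 with rapamycin against control. Quantile normalization called 1 member in hypoxia (Atoh8 at -1.07). Centring by bands of spot rows called 5 with rapamycin against control, adding Id2 at -1.06 and Bmp4 at 1.01. The cause of these last 2 changes was not tested. The other alternatives (the percentile over probes detected on all arrays, the deposited value table, the median over the probes of a gene, and outlier spots kept) changed no member call. Id3 on array A against control was between -1.99 and -2.15 over these settings.

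No paired analysis was possible because each condition had 1 array. Signal over background limits a comparison to a bound where 1 array is dim (Smad6 in triple stimuli, Atoh8 and Smad9 on array A and in triple stimuli with and without rapamycin), and Id4 and Bambi gave no comparison.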

Other observations

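Twsg1 and Fst, secreted BMP antagonist genes that stayed under 2-fold and were named after their values were seen, differed in which arrays they were low on. Twsg1, which encodes a BMP-binding protein, had a log2 level of 1.26 in triple stimuli, 1.56 on array A, 1.84 with rapamycin, 1.97 in hypoxia, 2.13 in control and 2.15 on array B. Fst, the gene of the activin antagonist follistatin, was at -1.14 on array A, -0.96 with rapamycin, -0.77 in hypoxia, -0.65 in triple stimuli, -0.34 in control and -0.20 on array B. Twsg1 was lowest in triple stimuli and Fst on array A, and array B was the highest array for both. Array A and both triple-stimuli arrays lay below the others for Twsg1, as for 17.7% of genes well above background on all 6. For Fst these groups overlapped.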
